A study of Mus musculus with 11 samples.

Results

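The transcriptome described here is that of serum-starved mouse embryonic palatal mesenchyme cells before any ligand was added: which genes these cells held at measurable levels, and which they lacked. Members were the rows of the deposited expression table with a usable estimate for the starved cells, ranked by level. They were 23284 of 23286 rows. The other 2, Col1a1 and Thbs1, carried a failed estimate, with a lower bound beyond 1e+300, and have no usable value. Each row is a gene or transcript bundle with 1 value, in FPKM (fragments scaled to transcript length and to the number mapped), and a lower and an upper bound. FPKM is divided by transcript length, so levels of different genes can be set side by side. In brackets after a level stand its deposited bounds. A row was called expressed when its lower bound was at least 1 FPKM, lacking when its upper bound was under 1 FPKM, and undecided when its interval held 1 FPKM. Inside the brackets, the word shared marks a row with 20% or more of its 31-base words also found at another locus, outside marks a value beyond its own bounds, and joint marks a row that spans several genes.

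The cells, named MEPM in the labels, were grown from the palate of mouse embryos at embryonic day E13.5, cultured in medium with 10% fetal bovine serum and then held overnight in 0.1% serum. The starved group had 4 polyA-selected libraries among the 11 of the study, whose other groups were given PDGFA or FGF1 with heparin for 1 h and are not compared here. The labels give no genotype, strain or sex, and do not say whether the 4 replicates came from separate litters or cultures. The table pools them into 1 estimate per row, so no spread between replicates could be computed, and statements of order below rest on whether deposited intervals overlap.

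The secondary palate forms from a pair of shelves that grow out of the maxillary processes, rise above the tongue and fuse. Their core is a mesenchyme derived mostly from cranial neural crest, wrapped in epithelium and threaded with vessels, nerves and muscle precursors. Growth of the shelves depends on exchange between epithelium and mesenchyme through FGF, Hedgehog, BMP, Wnt, TGF-beta and PDGF ligands. Starving cultured cells of serum removes most outside growth factors, which is why it is used as the starting state for adding a single ligand.

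Of the 23284 rows, 10577 (45.4%) were called expressed, 11097 (47.7%) lacking and 1610 (6.91%) undecided. Counted per named gene, by its highest row, the shares were 46.1%, 47% and 6.93% of 22906 genes. The counts of lists below are read against these shares, and one near them is no result about the list. The median was 0.864 FPKM over the rows, 0.973 FPKM over the named genes and 13.4 FPKM over the expressed rows. Levels of at least 100 FPKM were reached by 658 rows, while 6206 rows were listed at 0. The 10 highest rows held 7.81% of the summed FPKM, the 100 highest 24.7%, and all lacking rows together 0.178%. Among rows of at least 1 FPKM the interval reached a median of 25.5% of the level to either side, and 93.4% for the 129 rows whose deposited locus held 5 or more rows.

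**Figure D1:**
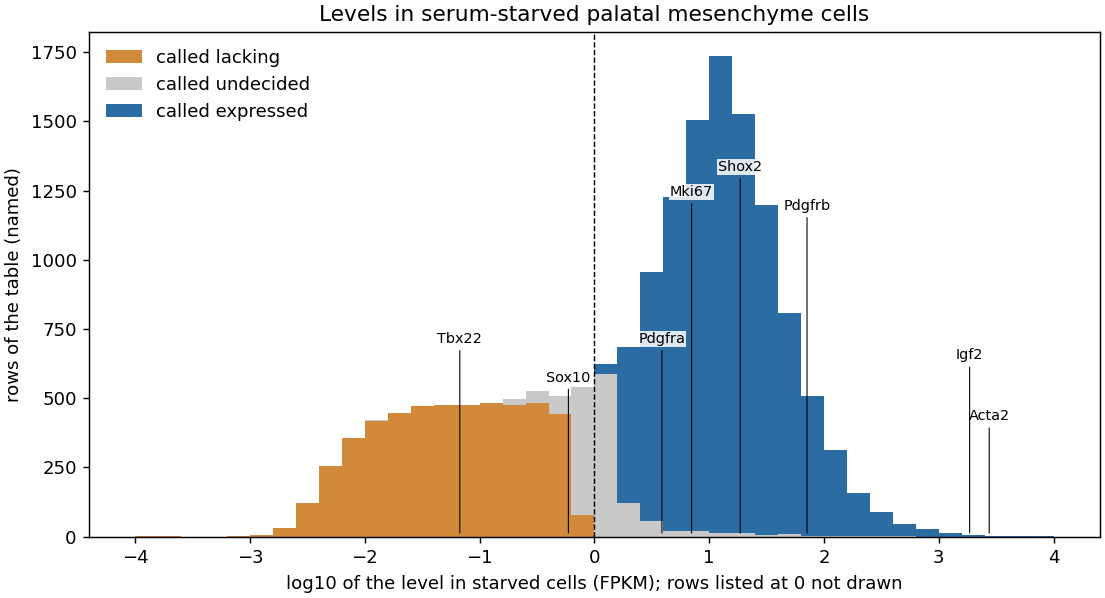
Rows by level in starved cells, on a log10 axis of FPKM in steps of 0.2, with the number of named rows on the vertical axis and colours for the 3 calls. Expressed rows form a hump whose median is 13.4 FPKM, lacking rows a flatter shoulder under 1 FPKM (dashed line), and the marked genes run from Tbx22 at 0.0672 FPKM to Acta2 at 2745 FPKM.

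The highest row was that of Mir703, a microRNA precursor of 109 bases on chromosome 5 (98475556 to 98475664, GRCm38.p6), at 6889 FPKM [3557 to 10297, shared]. It is a short row with sequence found elsewhere, and polyA selection does not capture mature microRNAs, so the level cannot be read as the mature product. The mature sequence is shown because this row leads the table. RefSeq places it at chr5:98475616-98475636 on the reverse strand (GRCm38.p6) and gives it, 5′ to 3′ with the seed (bases 2 to 8) in capitals, as follows.
mmu-miR-703: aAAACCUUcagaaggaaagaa
Psmb5, a catalytic subunit of the proteasome, ranked next at 4169 FPKM [67.2 to 12443, shared, joint], with an interval so wide that it overlapped those of every other gene among the 30 highest named rows. Below these came genes of the actin cytoskeleton and the matrix. Tmsb4x, which binds actin monomers, stood at 3236 FPKM [1679.7 to 3472]. Acta2, smooth muscle alpha-actin (chromosome 19, 34240336 to 34255585, GRCm38.p6), stood at 2745 FPKM [1404 to 4087]. Sparc, a collagen-binding matrix protein, had practically the same level at 2744 FPKM [1467 to 4021], and its interval overlapped those of both.

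Among the 30 highest named rows, 9 shared sequence with another locus. Together the 30 held 14.1% of the summed FPKM. Besides Sparc, their matrix genes were led by Col1a2, the alpha-2 chain of type I collagen (chromosome 6, 4505618 to 4541543, GRCm38.p6), at 2025 FPKM [667 to 3384]. Serpinh1, the collagen chaperone of the endoplasmic reticulum, was listed at 1442 FPKM [919 to 1966]. Biglycan (Bgn) stood at 1313 FPKM [822 to 1798]. Fibronectin (Fn1) stood at 1263 FPKM [381 to 2146], and lysyl oxidase (Lox), which cross-links collagen, at 1074 FPKM [660 to 1490.0]. These matrix rows could not be ordered against one another, since their intervals overlapped. Translation genes among the 30 included Eef1a1 at 2189 FPKM [1301 to 3077, shared] and Rplp1 at 1976 FPKM [869 to 1559, shared, outside]. The growth factor gene Igf2 ranked with them at 1855 FPKM [953 to 2758], and so did its imprinted neighbour H19, a noncoding RNA, at 1083 FPKM [703 to 1461]. Outside the gene lists, the highest rows were those of Anxa2, a membrane-binding annexin, at 844 FPKM [625 to 1063], S100a6, a calcium-binding protein, at 834 FPKM [475 to 852], and the amyloid precursor gene App at 815 FPKM [536 to 1093].

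The mesenchyme label was set beside a list of its markers. That list was chosen with earlier results of these data known, so its count is a description and no independent check of the label. All 19 measured mesenchyme and fibroblast markers were called expressed, against 46.1% of all named genes, with a median of 75.0 FPKM. The member without a value was Col1a1. Vimentin (Vim) stood at 1982 FPKM [1208 to 2754], Col3a1 at 749.7 FPKM [604 to 896] and periostin (Postn) at 697 FPKM [428 to 965]. Among the transcription factors of the list, Prrx1 was the highest at 233 FPKM [171 to 295], 3.10 times Prrx2, with intervals apart. Twist1, which keeps neural crest cells mesenchymal, stood at 60.1 FPKM [43.3 to 74.0], 11.3 times Twist2, and those intervals were apart too. The lowest member was Pdgfra, the receptor that marks much of the craniofacial mesenchyme, at 3.87 FPKM [2.95 to 4.79]. Pdgfrb, its partner receptor, stood at 71.1 FPKM [55.2 to 86.9], 18.4 times higher, with intervals apart.

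**Figure D2:**
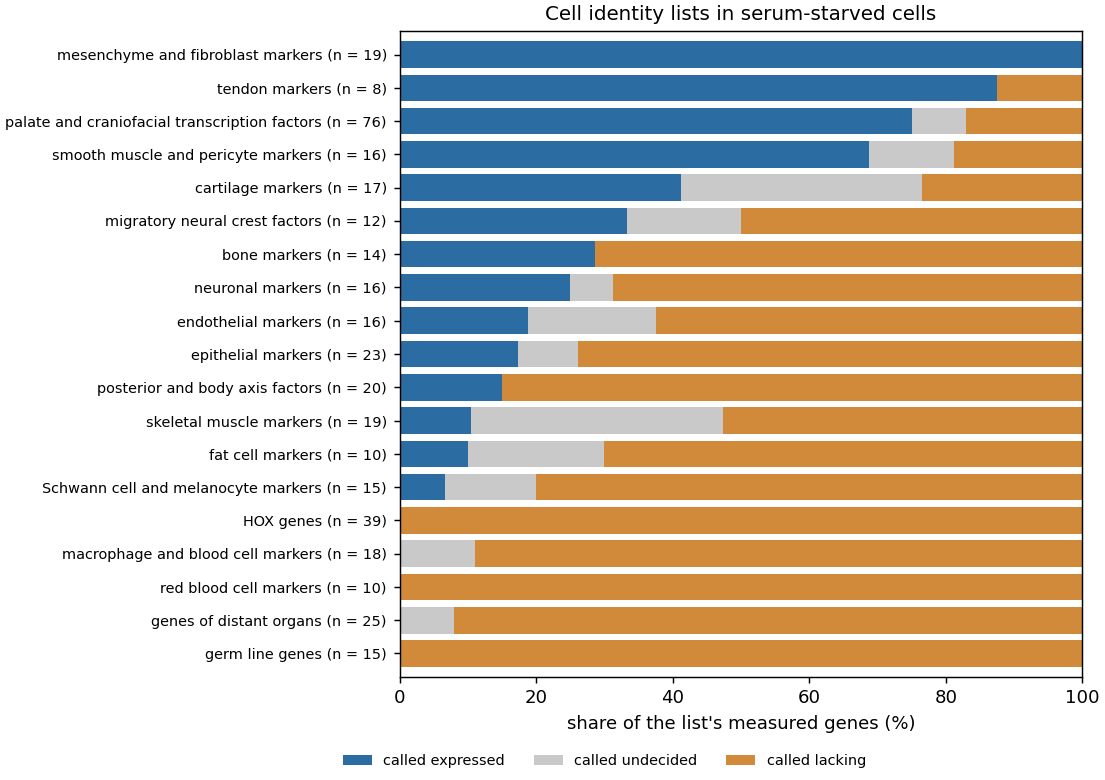
Share of each list's measured genes (horizontal axis, percent) called expressed, undecided or lacking in starved cells, 1 bar per list with its number of genes. The mesenchyme list is expressed throughout (19 of 19), the palate transcription factors for the larger part (57 of 76), and the HOX list not at all (0 of 39).

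The transcription factors that pattern the palate and face were measured for 76 genes. Of these, 57 were called expressed (75%, beside 46.1% of all named genes), 13 lacking and 6 undecided. Their median was 6.98 FPKM, beside 0.973 FPKM over all named genes. Barx1, a gene of the posterior palate, led at 60.7 FPKM [42.4 to 72.5], closely followed by Msx1, which is needed for shelf growth, at 59.8 FPKM [46.7 to 72.9], and these intervals overlapped. Osr1 stood at 52.1 FPKM [38.6 to 65.1], 14.0 times its paralog Osr2 at 3.73 FPKM [2.41 to 5.06]. Lhx8, a LIM homeobox gene of the maxillary mesenchyme, stood at 41.9 FPKM [30.957 to 52.3], 3.13 times Lhx6. Six2 stood at 36.3 FPKM [27.0 to 45.5]. Shox2, which marks the anterior palate in the embryo, was listed at 18.6 FPKM [13.1 to 23.5], and Pax9, whose loss in mice gives cleft palate and missing teeth, at 13.9 FPKM [10.3 to 17.5]. Genes typical of anterior and of posterior shelf thus appeared in one profile, and bulk RNA does not tell whether the same cells held them.

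Of the 13 palate factors called lacking, Tbx22 is the gene mutated in X-linked cleft palate, and it stood at 0.0672 FPKM [0.0230 to 0.116]. Lef1, a nuclear partner of beta-catenin, stood at 0.0939 FPKM [0 to 0.190]. Tbx1 and Tfap2a were also lacking, the latter at 0.634 FPKM [0.348 to 0.920], close under the threshold. Hand2, a gene of the lower jaw, stood at 0.0186 FPKM [0 to 0.0341]. Of the DLX family, Dlx1 at 10.8 FPKM [8.11 to 13.4] and Dlx2 at 8.29 FPKM [6.04 to 10.5] were expressed with overlapping intervals, and Dlx5 was expressed at 4.62 FPKM [3.07 to 6.18], with an interval that overlapped that of Dlx2. Dlx6 was undecided, and Dlx3 at 0.00861 FPKM [0 to 0.0293] and Dlx4, listed at 0, were lacking.

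**Figure D3:**
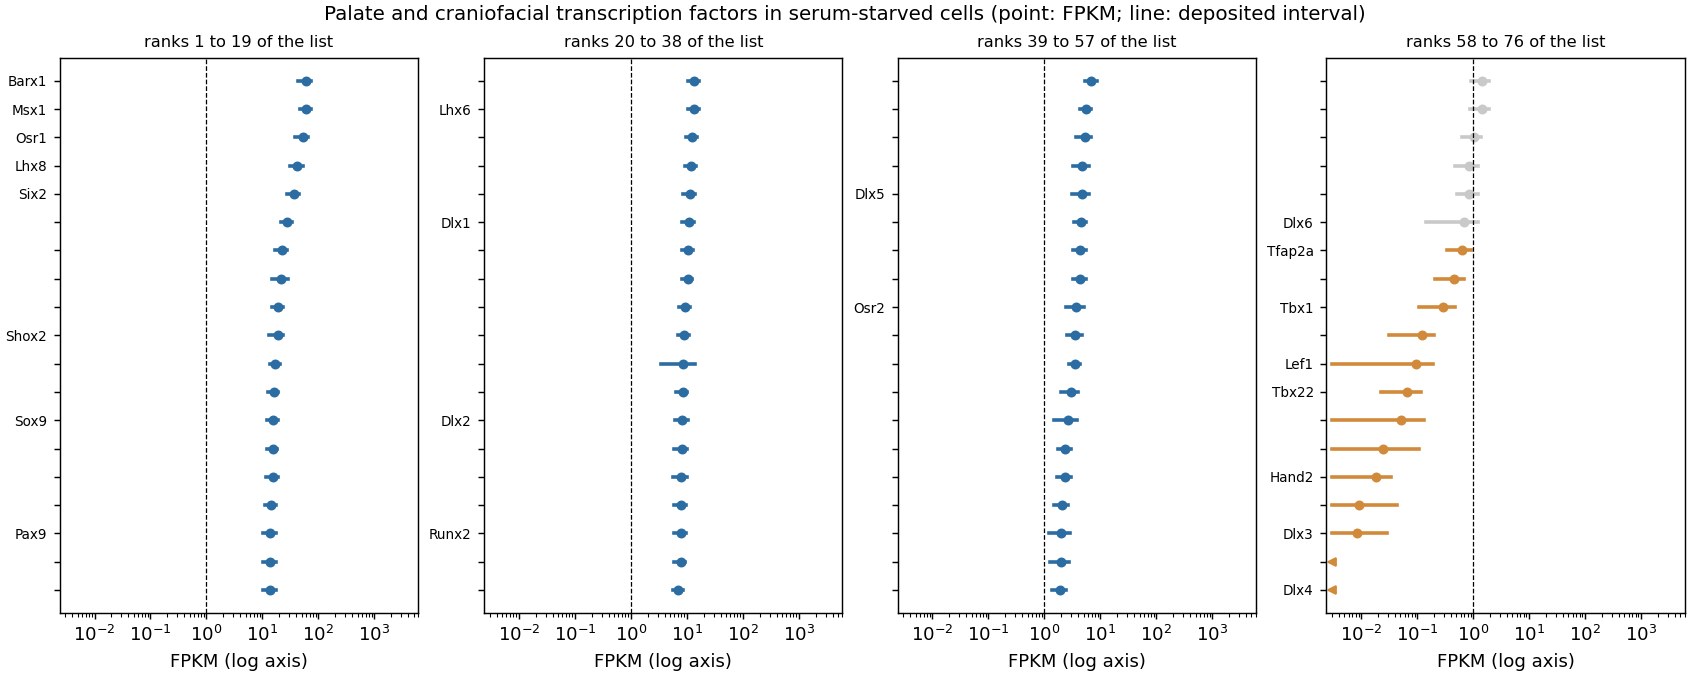
Level of each of the 76 palate and craniofacial transcription factors (points, FPKM on a log axis) with its deposited interval (lines), in order of level over 4 panels, with the genes described in the text labelled. Barx1 and Msx1 lead near 60 FPKM with overlapping intervals, 1 FPKM is the dashed line, and the last panel holds the undecided and lacking genes, with a triangle at the left edge for those listed at 0.

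HOX genes, which give the body and the hind pharyngeal arches their position along the axis, are switched off in the neural crest that forms the face. All 39 measured HOX genes were called lacking, against 47% of all named genes, and 26 were listed at 0. The highest, Hoxb9, stood at 0.373 FPKM [0.183 to 0.550]. Hoxa2, whose loss turns the second arch into structures of the first, stood at 0.0513 FPKM [0 to 0.129]. Of 20 factors of the trunk, limbs and inner organs, 3 were expressed: Osr1, which also stands in the palate list as do Pitx1 and Hand2, Emx2 at 2.46 FPKM [1.64 to 3.27] and En1 at 1.89 FPKM [1.21 to 2.55]. The brachyury gene T, the limb gene Tbx5 and the gut gene Cdx2 were lacking. Among other homeobox and T-box families, Pax9 was the one PAX gene of 9 called expressed, Lhx8, Lhx6 and Lhx9 were the LIM homeobox genes called expressed among 12, and none of 13 NKX genes was. Outside the developmental families, 14 of 17 KLF genes were expressed (82.4%, beside 46.1% of all named genes), led by Klf4 at 70.5 FPKM [54.1 to 86.7].

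Of 12 factors of migrating neural crest, 4 were called expressed (33.3%, beside 46.1% of all named genes) and 6 lacking. Twist1, Sox9, Snai1 and Ets1 were expressed, of which Twist1 also stands in the mesenchyme list and Sox9 and Ets1 in the palate list. Ngfr, a receptor used to sort neural crest, was undecided at 1.51 FPKM [0.995 to 2.01]. Sox10, which crest cells hold while they migrate and glia and pigment cells keep, was lacking at 0.593 FPKM [0.323 to 0.856], close under the threshold. Foxd3 was lacking at 0.287 FPKM [0.128 to 0.433]. Pluripotency genes were lacking for 12 of 14. Oct4 (Pou5f1) was listed at 0, and the expressed pair, Klf4 and Klf2, also stand in the immediate early list.

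Markers of the other cell types that a palate culture could hold were low in most lists. In bulk RNA, fewer cells of a type and less RNA per cell cannot be told apart. Of 23 epithelial markers, 4 were expressed: Tgfb3, Perp, Jup and Krt18. The list summed to 369 FPKM, nearly all of it Tgfb3 and Perp, which is also a p53 target. E-cadherin (Cdh1) was lacking at 0.250 FPKM [0.121 to 0.371], Epcam at 0.0620 FPKM [0 to 0.148], Krt5 at 0.0226 FPKM [0 to 0.0870] and Krt14 at 0.00650 FPKM [0 to 0.0688, shared], and Shh, Esrp1 and Grhl2 were listed at 0. Endothelial markers summed to 17.0 FPKM over 16 genes. The VEGF receptor Flt1 was the highest at 8.32 FPKM [6.50 to 10.1], with Egfl7 and Kdr also expressed. Undecided were 3: Tek at 1.37 FPKM [0.933 to 1.80], Erg at 1.17 FPKM [0.688 to 1.65] and Ramp2 at 1.11 FPKM [0.437 to 1.70]. The other 10 were lacking, among them Pecam1 at 0.0348 FPKM [0 to 0.0751], Cdh5 at 0.0324 FPKM [0 to 0.0764], and Cldn5 and Tie1, listed at 0. None of 18 macrophage and blood cell markers was called expressed. The pan-leukocyte gene Ptprc stood at 0.0613 FPKM [0.0147 to 0.115], and the list summed to 4.97 FPKM, led by Lyz2 at 1.78 FPKM [0.901 to 2.59, shared]. Red blood cell markers were lacking for 10 of 10, of which 2, the adult globin rows Hba-a2 and Hbb-bs, share most of their sequence with other loci and are uncertain. Hba-a1 and Hbb-bt matched no row.

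Neural lists were uneven. Of 16 neuronal markers, 4 were called expressed, all of them cytoskeletal or growth cone genes. Gap43 stood at 39.9 FPKM [27.2 to 48.0], Stmn2 at 39.2 FPKM [28.7 to 49.5], the beta-tubulin gene Tubb3 at 37.0 FPKM [26.7 to 46.1] and Map2 at 9.11 FPKM [7.11 to 11.1]. Of the other markers of neurons, Syt1 was undecided at 1.05 FPKM [0.689 to 1.41] and 11 were lacking. Prph was lacking at 0.450 FPKM [0.169 to 0.732], Elavl4 at 0.0958 FPKM [0.00982 to 0.189], Nefl at 0.0611 FPKM [0 to 0.114] and Snap25 at 0.0108 FPKM [0 to 0.0359]. Rbfox3 was listed at 0. A part of neurons in the levels of the first 4 was not tested. Of 15 Schwann cell and melanocyte markers, Mbp was expressed, at 4.66 FPKM [3.42 to 5.89], while the pigment genes Tyr and Dct were listed at 0. Of 19 skeletal muscle markers, 2 were expressed and 7 undecided. Skeletal alpha-actin (Acta1) was expressed at 17.2 FPKM [13.1 to 21.4] and Mylpf at 2.49 FPKM [1.11 to 3.73]. The muscle determination genes Myod1, at 0.0712 FPKM [0 to 0.164], and Myf5, at 0.0634 FPKM [0 to 0.110], were lacking. Of 25 genes of distant organs such as liver, pancreas and testis, none was called expressed, nor was any of 15 germ line genes. These shares depend on the threshold: the endothelial count was 3 at 1 FPKM, 5 at 0.5 FPKM and 1 at 2 FPKM. By the FPKM value alone it was 6.

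Skeletal and tendon genes gave a mixed picture. Of 17 cartilage markers, 7 were expressed (41.2%, near the 46.1% of all named genes) and 6 undecided. The expressed count rose to 13 at a threshold of 0.5 FPKM. Col2a1, the main cartilage collagen, stood at 74.9 FPKM [57.9 to 91.8], and Sox9, the master factor of cartilage, at 15.7 FPKM [12.3 to 19.2]. Col10a1, a collagen of hypertrophic cartilage, stood at 36.6 FPKM [26.7 to 46.6]. Aggrecan (Acan) was undecided, and Col9a1 and Matn1 were lacking. Of 14 bone markers, 4 were expressed, among them Spp1 (osteopontin) at 24.0 FPKM [18.4 to 29.6] and Runx2, the factor that commits cells to bone, at 7.80 FPKM [5.93 to 9.66]. Sp7, the next factor in that path, was lacking at 0.172 FPKM [0.0667 to 0.267], as was alkaline phosphatase (Alpl) at 0.366 FPKM [0.182 to 0.545]. Tendon markers were expressed for 7 of 8, of which Egr1 also stands in the immediate early list and Dcn in the mesenchyme list. Tenascin C (Tnc) led at 322 FPKM [218 to 426], the tendon factor Scx stood at 34.8 FPKM [14.3 to 55.3] and Tnmd at 15.5 FPKM [10.2 to 20.048]. Fat cell markers were expressed for 1 of 10, the exception being Lpl at 2.15 FPKM [1.52 to 2.78], while the fat cell genes Adipoq and Lep were listed at 0.

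Genes of the contractile apparatus had the highest median of the 90 lists and families, 313 FPKM, and 39 of 40 were called expressed. Transgelin (Tagln) stood at 1646 FPKM [1047 to 2245], tropomyosin 1 (Tpm1) at 1537 FPKM [1216 to 1857] and the myosin light chain gene Myl9 at 750.3 FPKM [483 to 888]. Cytoplasmic actin was unequal between its paralogs, with Actb at 1552 FPKM [980.4 to 2118, shared] and Actg1 at 55.1 FPKM [40.5 to 69.1, shared], although both rows share sequence with other loci. Actc1, cardiac alpha-actin, was the undecided member at 1.46 FPKM [0.767 to 2.14]. Smooth muscle and pericyte markers were called expressed for 11 of 16 (68.8%, beside 46.1% of all named genes). They included Actg2 at 310.3 FPKM [210.1 to 379.8], calponin (Cnn1) at 112 FPKM [72.7 to 151] and the smooth muscle myosin Myh11 at 21.6 FPKM [16.9 to 26.3]. Myocardin (Myocd), the co-factor that drives the smooth muscle programme, was lacking at 0.158 FPKM [0.0699 to 0.248], and so were the pericyte channel genes Abcc9 and Kcnj8.

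Serum response factor (Srf), itself at 28.2 FPKM [22.1 to 34.3], binds a 10-base element called the CArG box in many actin and myosin genes. In promoters of 300 bases from RefSeq (250 before the annotated start, 50 after; GRCm38.p6), a CArG box was found in 5 of 32 matched contractile genes, 15.6%, against 1.53% of 14844 protein-coding promoters. None was found in the 11 matched promoters of the smooth muscle list. Every box marked below reads CC, then only A or T, then GG. Elements that depart from this form or lie outside the window were not counted, so a promoter without a match can still hold one. This motif was chosen after the levels were seen, so the shares are a description. The 250 bases before the start of these 5 genes are shown because they carry the element, followed by Col1a2, the leading collagen, and Hoxa2, a lacking gene. Capitals mark the CArG box and the motifs TATAAA (bound by TBP), CCAAT (bound by NF-Y) and GGGCGG (bound by SP factors) on either strand. Each line runs 5′ to 3′ in the direction of the gene.
Myl9 (chr2:156775214-156775463, forward strand, GRCm38.p6): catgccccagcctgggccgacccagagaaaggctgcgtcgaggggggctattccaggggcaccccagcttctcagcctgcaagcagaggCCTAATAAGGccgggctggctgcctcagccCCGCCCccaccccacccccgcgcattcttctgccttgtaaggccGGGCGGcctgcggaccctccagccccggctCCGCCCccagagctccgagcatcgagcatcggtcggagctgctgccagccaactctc
Vcl (chr14:20929148-20929397, forward strand, GRCm38.p6): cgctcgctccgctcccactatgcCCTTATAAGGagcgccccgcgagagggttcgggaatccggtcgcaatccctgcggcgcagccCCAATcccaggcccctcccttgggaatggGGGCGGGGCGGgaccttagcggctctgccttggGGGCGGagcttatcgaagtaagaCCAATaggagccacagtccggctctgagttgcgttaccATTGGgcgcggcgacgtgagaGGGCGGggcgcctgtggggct
Actg1 (chr11:120348496-120348745, reverse strand, GRCm38.p6): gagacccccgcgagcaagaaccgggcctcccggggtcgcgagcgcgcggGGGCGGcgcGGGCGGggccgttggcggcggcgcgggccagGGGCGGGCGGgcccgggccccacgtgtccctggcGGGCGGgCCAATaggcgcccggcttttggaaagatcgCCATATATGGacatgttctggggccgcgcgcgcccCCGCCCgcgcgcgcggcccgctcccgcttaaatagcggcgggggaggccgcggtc
Acta1 (chr8:123894776-123895025, reverse strand, GRCm38.p6): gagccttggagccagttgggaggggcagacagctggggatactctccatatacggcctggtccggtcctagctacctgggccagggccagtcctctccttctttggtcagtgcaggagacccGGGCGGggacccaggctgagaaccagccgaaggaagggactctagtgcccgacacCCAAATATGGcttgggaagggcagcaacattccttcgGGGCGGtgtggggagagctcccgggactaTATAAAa
Actc1 (chr2:114052876-114053125, reverse strand, GRCm38.p6): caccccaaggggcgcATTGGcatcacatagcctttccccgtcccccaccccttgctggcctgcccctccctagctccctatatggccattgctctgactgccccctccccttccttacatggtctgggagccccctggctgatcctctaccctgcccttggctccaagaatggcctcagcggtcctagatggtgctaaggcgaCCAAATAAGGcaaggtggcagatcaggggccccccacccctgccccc
Col1a2 (chr6:4505368-4505617, forward strand, GRCm38.p6): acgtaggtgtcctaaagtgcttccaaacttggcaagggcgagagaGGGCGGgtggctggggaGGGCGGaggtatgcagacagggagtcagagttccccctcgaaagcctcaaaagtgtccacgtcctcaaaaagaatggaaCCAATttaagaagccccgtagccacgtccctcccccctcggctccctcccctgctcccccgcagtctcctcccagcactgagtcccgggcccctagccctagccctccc
Hoxa2 (chr6:52164832-52165081, reverse strand, GRCm38.p6): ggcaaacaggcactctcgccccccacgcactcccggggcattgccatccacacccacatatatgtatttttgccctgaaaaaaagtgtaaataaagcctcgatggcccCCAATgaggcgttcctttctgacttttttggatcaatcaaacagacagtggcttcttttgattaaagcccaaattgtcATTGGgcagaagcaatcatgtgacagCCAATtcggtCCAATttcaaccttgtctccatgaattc
The CArG box began at position -161 from the start of Myl9, -227 of Vcl, -90 of Actg1, -73 of Acta1 and -47 of Actc1. The levels of these 5 genes ran from Myl9 at 750.3 FPKM through vinculin (Vcl) at 185 FPKM to Actc1 at 1.46 FPKM. Col1a2 and Hoxa2 held no CArG box in this window, and CCAAT was present in both.

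Of 43 collagen chain genes, 24 were called expressed and 15 lacking, with Col1a1 not measurable. The expressed share, 55.8%, was near the 46.1% of all named genes. Fibril-forming chains led: Col1a2 as above, Col5a2 at 922 FPKM [482 to 1361] and Col3a1 at 749.7 FPKM [604 to 896], with overlapping intervals for Col1a2 and Col3a1. Col8a1, a short-chain collagen of vessels and cornea, followed at 691 FPKM [430.1 to 950.3], and Col12a1, which decorates fibrils, at 544 FPKM [261 to 827]. The basement membrane chains Col4a1, at 308 FPKM [212 to 403], and Col4a2, at 260.5 FPKM [184 to 337], were expressed, whereas Col4a3 at 0.409 FPKM [0.257 to 0.557] and Col4a4 at 0.456 FPKM [0.288 to 0.619] were lacking. Collagen processing enzymes were expressed for 27 of 29, with a median of 82.5 FPKM. Matrix glycoproteins were expressed for 39 of 49 and led, after Sparc and Fn1, by Postn and by Ccn2, a YAP and TGF-beta target, at 673 FPKM [459 to 888]. Thbs1 belongs to that list and has a failed estimate.

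Proteoglycan and hyaluronan genes were expressed for 17 of 30 (56.7%, near the 46.1% of all named genes). Asporin (Aspn) stood at 308 FPKM [175 to 441] and osteoglycin (Ogn) at 284 FPKM [157 to 412]. Hyaluronan, a space-filling polymer of the palatal shelf, is made by 3 synthases. Has2 was expressed at 14.8 FPKM [11.7 to 18.0], while Has1 at 0.199 FPKM [0.0728 to 0.309] and Has3 at 0.239 FPKM [0.129 to 0.354] were lacking. Of 39 matrix proteases and inhibitors, 23 were expressed (59%, beside 46.1% of all named genes). The inhibitor Timp2 led at 517 FPKM [359 to 674], with the matrix metalloproteinases Mmp14 at 273 FPKM [200.3 to 346] and Mmp2 at 232 FPKM [171 to 292] next and overlapping. The inflammation-linked Mmp3, at 0.232 FPKM [0.0846 to 0.381], and Mmp13, at 0.335 FPKM [0.157 to 0.513], were lacking.

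Integrins were expressed for 15 of 26 (57.7%, beside 46.1% of all named genes), led by Itgb1, the common beta chain, at 543 FPKM [369 to 717]. Leukocyte integrins such as Itgal and Itgam were lacking. Cadherins were expressed for 9 of 23 (39.1%, near that of all named genes), or 5 at a threshold of 2 FPKM. Cdh11, the mesenchymal cadherin, led at 296 FPKM [214 to 377], 2.91 times N-cadherin (Cdh2) at 102 FPKM [78.0 to 125]. N-cadherin was in turn 406 times E-cadherin, with intervals apart. Semaphorin genes were expressed for 12 of 20 (60%, beside 46.1% of all named genes), with Sema3c at 221 FPKM [161 to 280.0].

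PDGF ligands are dimers of A to D chains that bind PDGFRalpha and PDGFRbeta. Of 21 PDGF and VEGF genes, 19 were called expressed (90.5%, beside 46.1% of all named genes), with a median of 11.7 FPKM. The starved cells held all 4 PDGF ligand genes. Pdgfa stood at 49.7 FPKM [32.2 to 60.3] and Pdgfc at 46.8 FPKM [36.2 to 57.3], with overlapping intervals. Pdgfd stood at 26.8 FPKM [19.6 to 33.9], and Pdgfb was the lowest at 3.49 FPKM [2.46 to 4.52], with Pdgfa 14.2 times above it. Among the receptors Pdgfrb stood far above Pdgfra, with the values given among the mesenchyme markers. Vegfa stood at 31.2 FPKM [24.6 to 37.8], and Kit and Csf1r, related receptors of other lineages, were lacking. Csf1, the ligand of the latter, was expressed at 72.9 FPKM [56.9 to 89.0].

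FGF ligands signal through 4 tyrosine kinase receptors with heparan sulfate as co-receptor. Of 22 ligand genes, 7 were called expressed (31.8%, beside 46.1% of all named genes) and 14 lacking. At a threshold of 2 FPKM, 4 remained expressed. Fgf7, a mesenchymal ligand for epithelium, led at 31.7 FPKM [23.6 to 39.9], 12.4 times Fgf10 at 2.56 FPKM [1.87 to 3.26], the mesenchymal ligand of the early palate. Fgf18 stood at 15.3 FPKM [11.4 to 19.1] and Fgf2 at 10.8 FPKM [5.43 to 12.8]. Fgf13, which acts inside the cell and is not secreted, stood at 23.0 FPKM [18.0 to 28.0]. Fgf1, the ligand used elsewhere in the study, was lacking at 0.193 FPKM [0.0779 to 0.302], and the epithelial ligand Fgf8 was listed at 0.

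Receptors for FGFs were graded. Fgfr1 (chromosome 8, 25518759 to 25575718, GRCm38.p6) stood at 43.1 FPKM [33.7 to 52.4], 4.04 times Fgfr2 at 10.7 FPKM [8.34 to 13.001]. Fgfr3 was lacking at 0.328 FPKM [0.146 to 0.511] and Fgfr4 at 0.0220 FPKM [0 to 0.0605], and neighbours in this order had intervals apart at every step. Fgfrl1, a receptor without a kinase, stood at 22.4 FPKM [17.5 to 27.3]. The Klotho co-receptors Kl and Klb, used by hormone-like FGFs, were lacking. Heparan sulfate carriers were abundant, with the glypicans Gpc3 at 328 FPKM [248 to 408] and Gpc4 at 264 FPKM [192 to 333] overlapping, and syndecans Sdc1 at 109 FPKM [83.3 to 135] and Sdc2 at 107 FPKM [81.1 to 132] overlapping likewise.

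Every one of the 36 measured adaptors, RAS and RAF proteins, MAP kinases and PI3 kinase genes was called expressed, with a median of 24.3 FPKM. Akt1 led at 166 FPKM [129 to 203]. Feedback inhibitors were expressed for 22 of 24, at a lower median of 6.74 FPKM. Dusp1, a nuclear MAP kinase phosphatase, led at 29.1 FPKM [21.3 to 36.9], Spry1 stood at 16.0 FPKM [11.9 to 19.976] and Spred1 at 15.7 FPKM [12.3 to 19.1]. Spry3 and Dusp2 were lacking. EGF family genes were expressed for 5 of 15 (33.3%, beside 46.1% of all named genes). Egfr stood at 24.9 FPKM [19.3 to 30.6] and Erbb2 at 14.0 FPKM [10.6 to 17.3], while Erbb3, at 0.317 FPKM [0.161 to 0.464], and Erbb4, at 0.0682 FPKM [0.0179 to 0.116], were lacking.

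**Figure D4:**
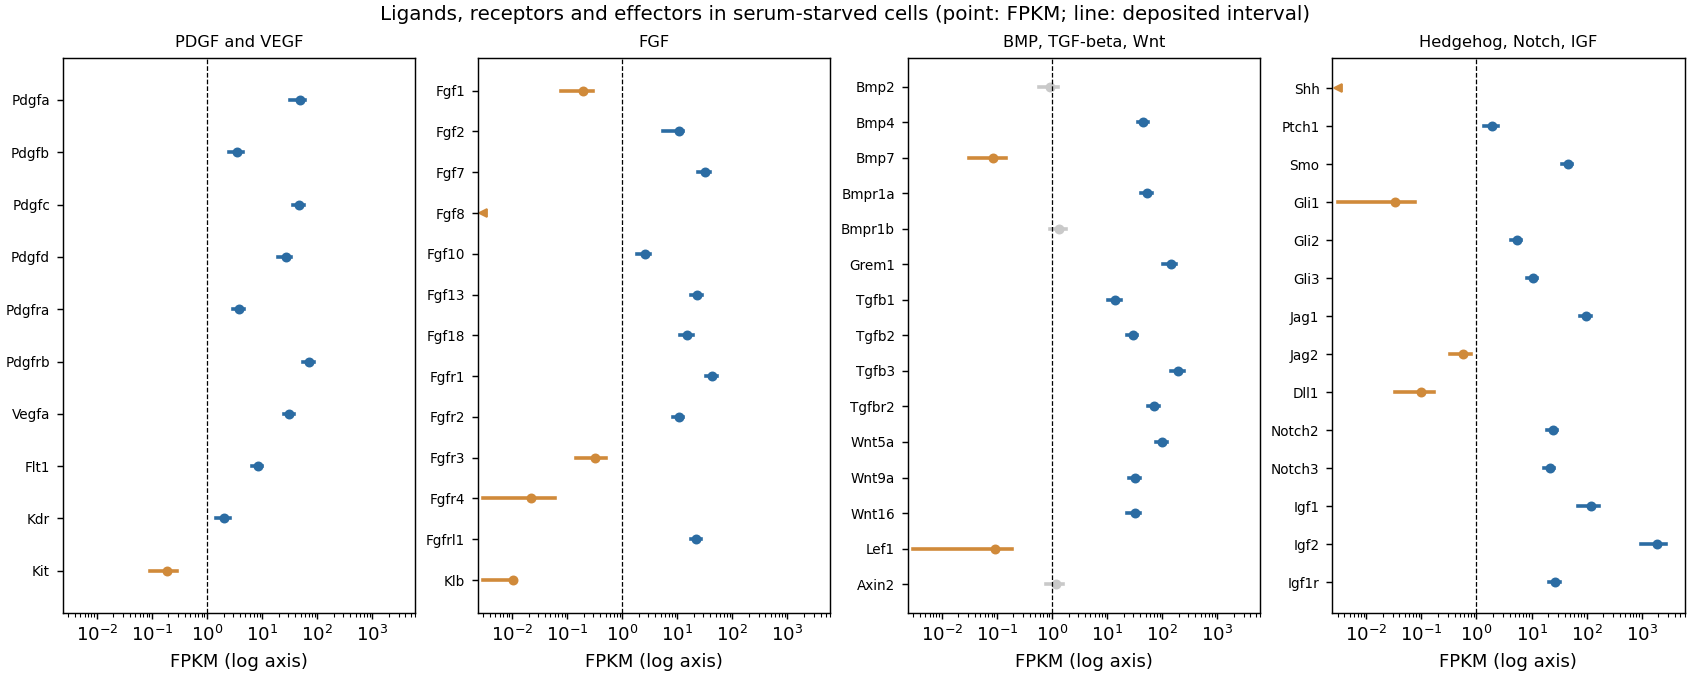
Levels of ligands, receptors and effectors of 8 signalling families in starved cells (points, FPKM on a log axis) with their deposited intervals (lines), coloured by call as in the plot of all levels, with a dashed line at 1 FPKM. Pdgfrb lies to the right of Pdgfra, Fgfr1 of Fgfr2, and Fgfr3 and Fgfr4 fall left of the line, and triangles mark genes listed at 0.

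TGF-beta and activin genes were expressed for 21 of 27 (77.8%, beside 46.1% of all named genes). Tgfb3, whose loss prevents palate fusion in mice, was the highest of the TGF-beta ligands at 196 FPKM [146 to 246], 6.73 times Tgfb2 at 29.2 FPKM [22.8 to 35.5], which was 2.06 times Tgfb1 at 14.2 FPKM [10.3 to 18.0], with both pairs of intervals apart. Inhba, the chain of activin A and itself needed for the palate, stood at 196 FPKM [139 to 242], with an interval overlapping that of Tgfb3. Follistatin-like 1 (Fstl1) stood above them at 872 FPKM [563 to 1179], and Tgfbr2 stood at 70.4 FPKM [55.0 to 85.9]. The early embryonic ligand Nodal was lacking at 0.0159 FPKM [0 to 0.0364].

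BMP genes were expressed for 24 of 34 (70.6%, beside 46.1% of all named genes). Bmp4 stood at 45.6 FPKM [36.0 to 55.2], but Bmp2 was undecided at 0.927 FPKM [0.577 to 1.27] and Bmp7 lacking at 0.0857 FPKM [0.0311 to 0.145]. The antagonist Grem1 exceeded Bmp4, at 143 FPKM [103 to 177], with intervals apart. The type I receptor Bmpr1a at 53.3 FPKM [41.5 to 65.0] was 39.1 times Bmpr1b. Id3, a known BMP target, stood at 47.7 FPKM [30.1 to 57.5].

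Of 19 Wnt ligands, 6 were called expressed (31.6%, beside 46.1% of all named genes). Wnt5a, which directs shelf outgrowth without beta-catenin, led at 99.3 FPKM [76.7 to 122], 3.06 times Wnt9a at 32.4 FPKM [25.0 to 39.7]. Wnt16 stood at 31.7 FPKM [22.7 to 39.5], and Wnt1, Wnt3 and Wnt3a were lacking. Receptors and modulators were expressed for 25 of 41 (61%, beside 46.1% of all named genes). The carrier that releases Wnts, Wls, stood at 284 FPKM [214 to 353], the receptor Fzd1 at 54.1 FPKM [42.1 to 66.1] and the soluble inhibitor Sfrp2 at 81.5 FPKM [60.2 to 102].

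In the Hedgehog pathway, 9 of 15 genes were expressed (60%, beside 46.1% of all named genes), and no ligand gene was called so. Shh, made by palate epithelium, was listed at 0. The signal transducer Smo stood at 45.1 FPKM [35.2 to 55.1] and the co-receptor Gas1 at 19.8 FPKM [15.1 to 24.4]. The receptor and target Ptch1 was low at 1.92 FPKM [1.34 to 2.49], with Smo 23.5 times above it. Gli3 at 10.5 FPKM [8.27 to 12.6] and Gli2 at 5.35 FPKM [4.16 to 6.56] were expressed, and Gli1, the target most often used as a readout of the pathway, was lacking at 0.0336 FPKM [0 to 0.0773].

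Notch genes were expressed for 14 of 22 (63.6%, beside 46.1% of all named genes). The ligand Jag1 stood at 97.8 FPKM [74.9 to 121], 174 times Jag2, which was lacking at 0.562 FPKM [0.329 to 0.789]. Delta ligands Dll1, Dll3 and Dll4 were lacking. Notch2 at 24.3 FPKM [19.2 to 29.5] and Notch3 at 21.5 FPKM [17.0 to 26.0] overlapped. Ephrins and their receptors were expressed for 15 of 21 (71.4%, beside 46.1% of all named genes). Epha2 led at 44.4 FPKM [34.6 to 54.3], and Efnb1, mutated in craniofrontonasal syndrome, stood at 29.0 FPKM [22.4 to 35.6].

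Genes of IGF signalling were expressed for 18 of 21 (85.7%, beside 46.1% of all named genes). Igf2 was 15.7 times Igf1 at 118 FPKM [71.1 to 165], and Igf1r stood at 26.7 FPKM [20.9 to 32.5]. The binding protein Igfbp2 reached 771 FPKM [508 to 978], whereas Igfbp1 was listed at 0. Retinoic acid genes were expressed for 10 of 18 (55.6%, near the 46.1% of all named genes). The binding proteins Crabp1, at 399 FPKM [233 to 408], and Crabp2, at 128 FPKM [80.6 to 138], led, and Rarg, at 49.5 FPKM [39.1 to 59.9], was 3.76 times Rara. The synthesis enzymes Aldh1a2 and Aldh1a3 were undecided, and the degrading enzymes Cyp26a1, Cyp26b1 and Cyp26c1 were lacking.

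Cytokine genes of fibroblasts were expressed for 21 of 32 (65.6%, beside 46.1% of all named genes). The shared receptor chain Il6st stood at 85.9 FPKM [66.3 to 105], Cxcl12 at 23.2 FPKM [17.9 to 28.6] and Ccl2 at 19.7 FPKM [11.2 to 22.2], while Il6 was lacking at 0.131 FPKM [0 to 0.280] and Cxcl1 at 0.427 FPKM [0.161 to 0.682]. Prostaglandin genes were expressed for 9 of 16 (56.2%, near the 46.1% of all named genes), with the inducible synthase Ptgs2 at 17.7 FPKM [13.6 to 21.7] and Ptgs1 lower at 7.06 FPKM [5.17 to 8.95].

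Cells starved overnight still held the transcripts of division. All 40 S phase and mitosis genes were called expressed, at a median of 13.503 FPKM, close to the 13.4 FPKM of all expressed rows. Ribonucleotide reductase (Rrm1) stood at 41.1 FPKM [31.9 to 50.2], topoisomerase II (Top2a) at 22.4 FPKM [17.5 to 27.3] and Mki67, the proliferation antigen, at 7.01 FPKM [5.50 to 8.53]. Cyclins of G1 were higher, with Ccnd2 at 244 FPKM [176 to 313] and Ccnd1 at 139 FPKM [107 to 172, joint]. Cdkn1a, the p21 inhibitor of cyclin-dependent kinases, was the highest of the cell cycle genes at 461 FPKM [345 to 578], 3.31 times Ccnd1, and the interval of Cdk4, at 255 FPKM [176 to 306], lay below that of Cdkn1a. Cdkn2b stood at 102 FPKM [71.9 to 122] and Cdkn2a, the locus of p16 and ARF, at 57.9 FPKM [44.9 to 70.9].

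Cdkn1a is also a target of p53. All 23 measured genes of the p53 list were called expressed, against 46.1% of all named genes, at a median of 55.2 FPKM. Ccng1 stood at 343 FPKM [248 to 438], Bax at 293 FPKM [183 to 314], Mdm2, the brake on p53, at 107 FPKM [81.4 to 132] and p53 itself (Trp53) at 69.5 FPKM [54.9 to 84.1]. Genes known to rise when FOXO factors enter the nucleus or nutrients fall were expressed for 19 of 21 (90.5%, beside 46.1% of all named genes). The autophagy receptor Sqstm1 led at 200.4 FPKM [147 to 253], and Foxo3 stood at 18.3 FPKM [13.9 to 22.7]. Every group of the study was starved, so a response of these genes to starvation was not tested.

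Immediate early transcription factors, which growth factors switch on without new protein, were expressed at baseline for 22 of 28 (78.6%, beside 46.1% of all named genes). Klf4, Jund at 45.8 FPKM [35.2 to 55.8] and Klf6 at 45.2 FPKM [35.2 to 55.2] led. Jun stood at 29.9 FPKM [23.1 to 36.8], 11.4 times Fos at 2.62 FPKM [1.69 to 3.56]. Egr1 at 11.4 FPKM [8.52 to 14.2] was 21.9 times Egr2, which was lacking at 0.519 FPKM [0.283 to 0.745], as were Egr3, Egr4 and Fosb. Baseline level thus differed between close relatives in both the FOS and the EGR family. Among other immediate early genes, 24 of 25 were expressed, led by Ccn1 at 326 FPKM [235 to 414], and Arc, the undecided one, stood at 0.746 FPKM [0.428 to 1.07].

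All 26 measured genes of cholesterol synthesis and its control were called expressed, at a median of 66.6 FPKM, with Hmgcs1 the highest at 216 FPKM [159 to 271]. Chaperones were expressed for 30 of 31. Hsp90ab1 led at 768 FPKM [524 to 1011], and the endoplasmic reticulum chaperone Hspa5 stood at 565 FPKM [404 to 727]. Ddit3, a factor of the unfolded protein response, stood at 106 FPKM [54.8 to 155]. Glycolysis genes were expressed for 21 of 28, with Pkm at 348 FPKM [259 to 437, shared] and Aldoa at 339.7 FPKM [263 to 417, shared].

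Reference genes showed where the table cannot be read at face value. Of 18, 16 were called expressed, but Gapdh, a glycolytic enzyme of every cell, was called lacking at 0.113 FPKM [0 to 0.247, shared], and Ppia, a cyclophilin, at 0.297 FPKM [0.0517 to 0.517, shared]. The Gapdh row shares 84.1% of its 31-base words with other loci and the Ppia row 57.4%. Cytosolic ribosomal protein genes held such rows as well. Of 79, 68 were called expressed, but levels ran from Rplp1 at 1976 FPKM down to Rpl28 at 0.308 FPKM [0 to 0.614, shared]. The 73 rows that share sequence had a median of 40.9 FPKM and the 6 that do not one of 706 FPKM. Lists did not all go this way. The medians of rows that share and that do not were 59.9 and 84.3 FPKM for proteasome genes, but 64.5 and 45.9 FPKM for the reference genes. They were 56.4 and 6.56 FPKM for glycolysis genes and 128 and 95.2 FPKM for translation factors. How reads with several matches were assigned is not given in the sources used here, and its part in these values was not tested. Over the table, 2937 of 22749 rows with a value share 20% or more, among them 629 expressed rows. A call on such a row, expressed or lacking, is uncertain.

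Of 38 imprinted genes, 24 were called expressed (63.2%, beside 46.1% of all named genes). In the top 30 stood 3 of them: Igf2, H19 and Gnas at 951 FPKM [682 to 1219.6]. Grb10, an inhibitor of growth factor receptors, stood at 241 FPKM [175 to 308], the noncoding RNA Meg3 at 152 FPKM [95.2 to 208, joint] and Cdkn1c, a growth-restraining inhibitor, at 71.6 FPKM [55.7 to 87.5]. Kcnq1ot1 was lacking at 0.0811 FPKM [0.0557 to 0.106]. Xist, the RNA that coats the inactive X chromosome of female cells, was expressed at 7.48 FPKM [4.04 to 10.985], together with the Y-linked genes Eif2s3y at 20.5 FPKM [14.5 to 26.5], Ddx3y at 18.3 FPKM [14.1 to 22.4], Kdm5d and Uty. Xist and Y-linked RNA were thus both present in the pooled value, while Sry was listed at 0.

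Large gene families of sensory and immune tissue were mostly not expressed. None of 1108 olfactory receptor genes was called expressed, and 1058 were listed at 0. None of 331 vomeronasal or 38 taste receptor genes was called expressed either. Of these rows 528 olfactory, 241 vomeronasal and 1 taste receptor rows share 20% or more of their sequence, so that their lacking calls are uncertain. Keratin genes were expressed for 2 of 52, Krt18 and Krt80, and interleukin genes for 3 of 37, led by Il17d at 6.70 FPKM [4.15 to 9.01]. By RNA class, 10367 of 20267 protein-coding rows (51.2%) and 97 of 1699 long noncoding rows (5.71%) were expressed. Malat1, a nuclear noncoding RNA, stood at 99.1 FPKM [75.1 to 123]. Small RNA rows were imprecise. The widest intervals among rows of at least 100 FPKM were those of Snora31, Snora28, Snora64 and Snora3, small nucleolar RNAs that lie inside other genes, and Snora31 stood at 179 FPKM [0 to 1078].

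The promoters of expressed and lacking genes differed in composition, a property the ranking did not use. A CpG ratio (CpG dinucleotides over the number that base content predicts) of 0.6 or more was found in 5.06% of promoters of genes listed at 0, in 42.4% at 0.1 to 1 FPKM, in 83.2% at 10 to 100 FPKM and in 77.5% at 100 FPKM or more. Over all 14844 promoters the share was 51.7%. The motif GGGCGG, on either strand, rose from 10.2% to 74.9% between the same end classes, and all promoters held it in 49.7%. TATAAA on either strand fell from 29.4% to 5.97% at 10 to 100 FPKM and stood at 10.9% in the highest class, against 13.2% of all. CCAAT stayed between 34.9% and 41.6% in every class. Leaving the sensory receptor, keratin-associated and defensin families out of the genes listed at 0 gave a CpG share of 8.03%. HOX promoters, all of lacking genes, had this ratio in 33.3% of 15. Across 11482 genes above 0 FPKM, Spearman's rho of level with CpG ratio was 0.435, and with transcript length it was -0.00707 over 11463 genes. Length still differed between level classes: its median was 1038 bases for rows listed at 0, 3370 at 1 to 10 FPKM and 2019 at 100 FPKM or more. These are descriptions across genes of one group, which share libraries and are not independent replicates.

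**Figure D5:**
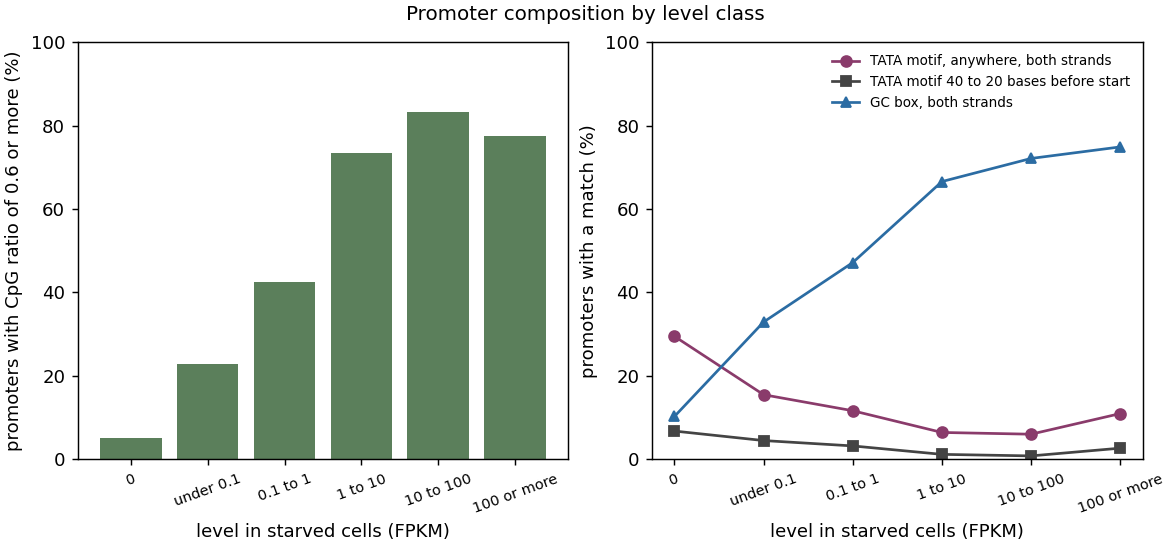
Promoter composition by level class in starved cells (horizontal axis, FPKM). Left, bars give the percent of promoters with a CpG ratio of 0.6 or more, and right, lines give the percent holding TATAAA anywhere, TATAAA 40 to 20 bases before the start, and GGGCGG. The CpG bars climb from 5.06% for genes listed at 0 to 83.2% at 10 to 100 FPKM.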

How the data were processed

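Values are the FPKM and bounds the authors deposited for the starved cells, 1 pooled estimate per row, per the file headers. CASAVA, TopHat, Cuffdiff and mm10 are named in the submitters' processing notes. Their versions, the annotation, the confidence level of the bounds and the handling of reads with several matches were not given in the sources used here. Depth per library is unknown, and 6 other columns of values were not used.

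Rows were named by accession through RefSeq (GRCm38.p6) and GENCODE M21, or by 80% reciprocal overlap of positions. Lengths and shared 31-base words came from GENCODE M21 transcripts. Promoters came from RefSeq and were used where the annotated start lay within 500 bases of the row's upstream end, by the strand of the gene. No test between groups was made, since each row has 1 value. Python 3.11.15, pandas 2.3.3, scipy 1.17.1 and matplotlib 3.10.9 were used. The calling rule was run on simulated rows with noise as wide as the deposited intervals, which does not test whether those intervals are right.

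The members and the 54 gene lists and 36 families were chosen with earlier results of these data known. Genes were named if they were among the 30 highest rows, the 6 highest or 6 lacking members of a list or family, expressed markers of other cells, a fixed panel, the 5 widest intervals or the 10 highest outside the lists. Chosen after their values were seen were 4 corrected family patterns, the 47 gene pairs, the CArG motif and printed promoters, the 0.6 and 500 limits, and the genes Acan, Actc1, Actg1, Aldh1a2, Aldh1a3, Arc, Bmp2, Bmpr1b, Cdkn1c, Cdkn2a, Col4a1, Col4a2, Col4a3, Dct, Ddit3, Erbb4, Esrp1, Gli2, Gli3, Grhl2, Hand2, Has1, Has2, Has3, Igf1r, Itgal, Lef1, Malat1, Mmp13, Myl9, Pdgfb, Pdgfd, Prrx1, Prrx2, Tgfb1, Tgfb2, Trp53, Twist2, Tyr and Vcl. Some genes are not reported here.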

Additional observations from a re-analysis of the deposited data

How the results depend on the processing

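No paired analysis was possible because the table gives 1 pooled value per group and row, and leaving out each replicate was not run for the same reason. Over thresholds of 0.5 and 2 FPKM, calls by value alone, rescaling to TPM and the row filters, the number of expressed rows ran from 8943 to 11575. The number of lacking rows ran from 8904 to 12239, except that 5559 were listed at 0 with an upper bound of 0. Undecided rows ran from 1425 to 2006, except for 918 without rows in a locus of several rows, a filter that tests fewer rows. That filter, and those on shared sequence and on values outside their own bounds, were chosen after seeing the data. Of 1226 list genes, 800 were expressed, and 683 to 871 under the alternatives. The expressed count moved by over 1.5 times for 21 of 90 lists and families: posterior and body axis factors, endothelial markers, macrophage and blood cell markers, Schwann cell and melanocyte markers, skeletal muscle markers, cartilage markers, fat cell markers, genes of distant organs, FGF ligands, PAX genes, GATA genes, cadherin genes, protocadherin genes, keratin genes, olfactory receptor genes, interleukin genes, CC and CXC chemokine genes, histone genes, microRNA rows, snoRNA rows and potassium channel genes. The small RNA rows and the rows with shared sequence are the least certain.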
